A study of Mus musculus with 6 samples.

Results

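The oligoadenylate synthetase (OAS) family was examined in RNA sequencing of mouse bone marrow-derived macrophages (BMDMs) after co-culture with ID8 cells, a mouse ovarian cancer line. The 8 genes Oas1a, Oas1b, Oas1c, Oas1g, Oas2, Oas3, Oasl1 and Oasl2 were taken by symbol from the 54532 genes listed, and all 8 were found. Before co-culture, ID8 cells received either 40 µM of the DNA-crosslinking drug cisplatin (3 libraries) or phosphate-buffered saline (PBS, 3 libraries). Both groups otherwise shared the same design, with marrow cells of C57BL/6 mice aged 6 to 8 weeks and no stated genetic change. The labels call the cells BMDMs, the methods call them marrow-derived monocytes. How ID8 cells were kept apart from the marrow cells, and whether libraries came from separate cultures or animals, is not given in the sources used here. The methods speak of biological replicates without saying what they are, so the p-values measure the spread between these libraries, which may be in part technical. The comparison asks how tumour cells that met cisplatin alter the RNA of macrophages.

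OAS proteins are sensors of double-stranded RNA, and their genes are induced by interferons. On binding such RNA the active members link ATP into short oligoadenylates called 2-5A, a signal that leads to the decay of viral and cellular RNA. The OAS-like (OASL) proteins carry ubiquitin-like domains next to an OAS core, and of the mouse pair Oasl1 has lost the synthetase activity and holds back translation of Irf7. In macrophages the family is part of the antiviral programme that interferon maintains.

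The family lies on chromosome 5 (GRCm38), in 2 places. Oasl2 and Oasl1 sit 11005 bases apart, and the Oas cluster begins 5792417 bases further on, with Oas2, Oas3, Oas1c, Oas1b, Oas1g and Oas1a in that order. By the longest annotated coding sequence of each gene, Oas1a and Oas1g measured 1101 bases and were 96.7% identical, while Oas1b was 81.1% and Oas1c 76.5% identical to Oas1a over the aligned bases. Oas2, with 2253 bases, was 2.05 times and Oas3, with 3414 bases, 3.101 times as long as Oas1a. Of the 100-base stretches of Oas1a transcripts, 40.9% also occur in Oas1g, and 31.25% of those of Oas1g occur in Oas1a, so reads could be shared between this pair and their levels are uncertain against each other. No such stretch was shared by the other 6 members.

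Sequences before the gene starts are shown because the 8 genes moved together, and because 3 of the windows carry the same run of letters. RefSeq promoter windows (GRCm38.p6) of 300 bases, 250 before the start and 50 from it on, were matched for 6 members. Oas2 and Oas1b had no entry. The windows were searched on both strands for GAAANNGAAA, the core of the interferon-stimulated response element, which the interferon-activated factors bind. Capitals mark each match, and matches that overlap were joined. The stretches below are from the windows of Oas1a (chr5:120907476-120907775, minus strand), Oas1g (chr5:120887564-120887863, minus strand), Oas1c (chr5:120812465-120812764, minus strand) and Oas3 (chr5:120777610-120777909, minus strand).
Oas1a: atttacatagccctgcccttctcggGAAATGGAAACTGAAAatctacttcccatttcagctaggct
Oas1g: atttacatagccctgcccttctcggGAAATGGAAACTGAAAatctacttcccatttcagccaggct
Oas1c: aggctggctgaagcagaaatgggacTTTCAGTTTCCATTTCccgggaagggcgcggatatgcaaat
Oas3: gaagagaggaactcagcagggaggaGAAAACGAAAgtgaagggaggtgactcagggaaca

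The core was found in 4 of the 6 windows, against 3.44% of all 32851 windows. In Oas1a and Oas1g a pair of overlapping matches formed the run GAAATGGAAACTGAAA, which ended 5 bases before the Oas1a start and 3 bases before the Oas1g start. The 16 bases in the Oas1c window, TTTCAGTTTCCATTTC, are the same run read from the opposite strand. Oas1c and Oas1b are transcribed away from each other with 120 bases between them, and counted from the Oas1b start this run lies at -22 to -7, in the reading direction of Oas1b. Across all windows the run was found in 5 genes, which were Oas1a, Oas1g, Oas1c, Apol9a and Apol9b. The Oas3 window held a single match at -75 to -66. In the Oasl1 and Oasl2 windows these letters were not found. The core of the gamma-activated site, TTCNNNGAA, was found in the Oas1a window alone among the 6, at -98 to -90, and in 8.30% of all windows.

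Reads recovered from the deposited FPKM (fragments per kilobase of gene and 1000000 reads) came to between 15776238 and 17924686 per library. Genes with at least 1 FPKM in at least 3 libraries were tested, which left 13441, and a gene was called where the limma adjusted p was under 0.05 and the log2 fold change at least 1 in size. By this rule 11.3% of tested genes were lower with cisplatin (1514) and 4.67% were higher (628). Scaling by 4 Y-linked genes gave 5181 lower and 85 higher, scaling by macrophage markers gave 5812 and 78, and limma voom on the recovered reads gave 1861 and 1227. All 3 cisplatin libraries lay below all 3 PBS libraries in 37.2% of tested genes. The 10 macrophage markers checked against the BMDM label were above 0 in every library. So were the lymphocyte, neutrophil and erythroid markers, so presence above 0 does not single out macrophages. Summed, the neutrophil markers stood at 7925 to 8191 FPKM with cisplatin and 4518 to 4663 FPKM with PBS, above the macrophage markers in both groups. The lymphocyte markers summed to 261 to 267 FPKM with cisplatin and 108 to 116 FPKM with PBS.

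All 8 OAS genes passed the filter and all 8 fell with cisplatin, against the background of 11.3%. In each of them every cisplatin library was below every PBS library, against 37.2% of tested genes. Their median log2 fold change, on log2(FPKM + 1), was -2.05, while that of all tested genes was -0.0011. Summed over the family, the level was 124, 126 and 127 FPKM in cisplatin replicates 1, 2 and 3, and 568, 574 and 567 FPKM in PBS replicates 1, 2 and 3. The groups were thus far apart, at 125.5 ± 1.27 and 570 ± 3.87 FPKM (SD, n = 3 each), a 4.54-fold difference of means. RNA was measured in bulk, so fewer cells of a type and less RNA per cell cannot be told apart.

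**Figure D1:**
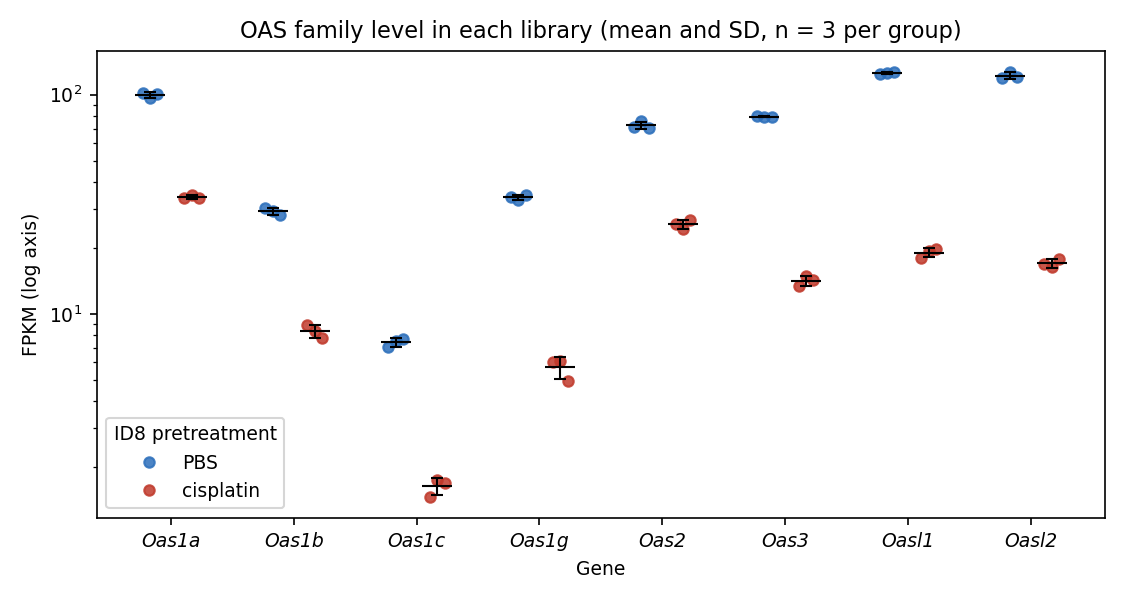
FPKM (log axis) of each OAS gene in each library, with PBS libraries in blue, cisplatin libraries in red, and black marks for the group mean and SD (n = 3 each). Each of the 8 genes has its red points below its blue points, with the narrowest gap in Oas2 (means of 25.6 and 72.4 FPKM) and the widest in Oasl2 (17.0 and 122 FPKM).

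Oas1a, which encodes an active single-core synthetase (chr5:120896256-120907521, minus strand), stood at 33.7, 34.9 and 33.6 FPKM in the cisplatin libraries and at 102, 96.8 and 100.5 FPKM in the PBS libraries. It was the highest OAS gene with cisplatin, at 34.1 ± 0.71 against 99.8 ± 2.81 FPKM with PBS (SD, n = 3 each), and it was the least changed but for Oas2. Its log2 fold change was -1.52 (SE 0.036, limma adjusted p = 1.46e-07).

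Oas1g, its near copy and also an active synthetase (chr5:120876142-120887613, minus strand), had 6.03, 6.12 and 4.94 FPKM with cisplatin and 34.1, 33.0 and 34.9 FPKM with PBS. The means were 5.70 ± 0.65 and 34.0 ± 0.95 FPKM (SD, n = 3 each), and the log2 fold change was -2.39 (SE 0.076, limma adjusted p = 4.80e-07). Cisplatin replicate 3 was the lowest of the 6 libraries.

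Oas1b is known as the flavivirus resistance gene, which common laboratory strains carry in a truncated form, and the deposited table lists it as a polymorphic pseudogene (chr5:120812635-120824163, plus strand). It had 8.91, 8.32 and 7.78 FPKM with cisplatin and 30.5, 29.5 and 28.2 FPKM with PBS. The groups did not overlap, and the log2 fold change was -1.70 (SE 0.057, limma adjusted p = 6.04e-07).

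Oas1c (chr5:120800194-120812514, minus strand), which shares the 120-base interval with Oas1b, was the lowest member in both groups. It had 1.47, 1.75 and 1.69 FPKM with cisplatin and 7.02, 7.53 and 7.67 FPKM with PBS, and rested on 60 to 299 reads per library. Its log2 fold change of -1.68 (SE 0.069, limma adjusted p = 1.51e-06) understates the ratio of the means, which was 4.53, because 1 FPKM is added before the logarithm. Gm43069 overlaps Oas1c on the other strand.

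Oas2, a synthetase with a repeated core (chr5:120730333-120749853, minus strand), had 25.8, 24.3 and 26.8 FPKM with cisplatin and 71.3, 75.5 and 70.3 FPKM with PBS. It showed the smallest change of the family, with a log2 fold change of -1.46 (95% interval -1.58 to -1.35, limma adjusted p = 5.61e-07). Gm43068 overlaps it on the other strand at 0.80 ± 0.36 FPKM with cisplatin and 2.15 ± 0.13 FPKM with PBS (SD, n = 3 each).

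Oas3, the longest synthetase of the family (chr5:120753098-120777661, minus strand), had 13.4, 14.9 and 14.2 FPKM with cisplatin and 79.98, 79.2 and 79.0 FPKM with PBS. Its log2 fold change was -2.41 (95% interval -2.51 to -2.30, limma adjusted p = 7.14e-08). Only 3244 bases lie between the Oas2 and Oas3 genes, and the intervals of their changes did not meet.

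Oasl1, the inactive OASL gene (chr5:114923240-114937915, plus strand), had 18.1, 19.3 and 19.7 FPKM with cisplatin and 124, 126 and 126 FPKM with PBS. The level with PBS was 6.59 times that with cisplatin, and the log2 fold change was -2.66 (SE 0.040, limma adjusted p = 5.32e-08). Gm13822 overlaps Oasl1 on the other strand, with 3.08 ± 0.66 FPKM with cisplatin and 2.33 ± 0.72 FPKM with PBS (SD, n = 3 each), and its groups overlapped.

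Oasl2, which retains synthetase activity in the mouse (chr5:114896936-114912234, plus strand), had 16.8, 16.4 and 17.8 FPKM with cisplatin and 119, 127 and 120.5 FPKM with PBS. It changed the most of the 8 genes. The means were 17.0 ± 0.75 FPKM with cisplatin and 122 ± 4.33 FPKM with PBS (SD, n = 3 each), and the log2 fold change was -2.77 (SE 0.045, limma adjusted p = 6.04e-08). Its level with PBS was 7.17 times that with cisplatin.

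The order of the levels differed between the groups. With PBS it ran Oasl1, Oasl2, Oas1a, Oas3, Oas2, Oas1g, Oas1b and Oas1c from highest to lowest FPKM, and only the ranges of Oasl1 and Oasl2 overlapped. With cisplatin it ran Oas1a, Oas2, Oasl1, Oasl2, Oas3, Oas1b, Oas1g and Oas1c, and no neighbouring ranges overlapped. Oasl1 and Oasl2 together made up 43.4% ± 0.65 of the summed family FPKM with PBS and 28.7% ± 0.84 with cisplatin (SD, n = 3 each). Oas1a made up 17.5% ± 0.60 with PBS and 27.1% ± 0.56 with cisplatin, and Oas2 made up 12.7% ± 0.40 and 20.4% ± 0.98 (SD, n = 3 each). Oas1b also held a larger share in every cisplatin library, Oas1g and Oas3 a smaller one, and the shares of Oas1c overlapped.

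**Figure D2:**
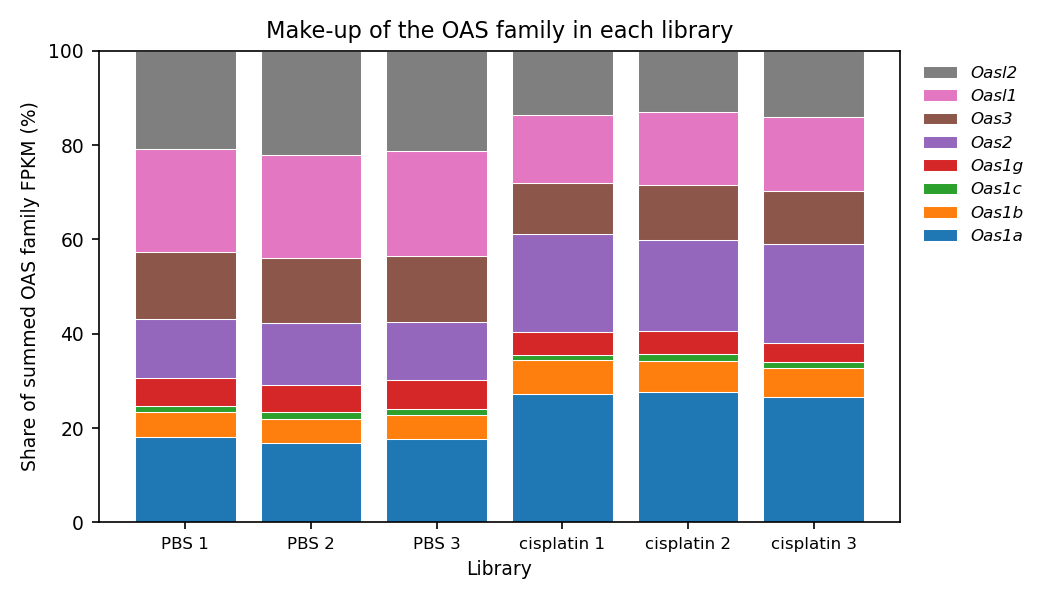
Share of the summed OAS family FPKM (%) that each gene made up in each of the 6 libraries, stacked to 100. Oas1a and Oas2 are wider in the cisplatin bars (27.1% and 20.4% on average) than in the PBS bars (17.5% and 12.7%), and Oasl1 and Oasl2 are narrower.

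Ratios between neighbouring members, taken within each library, do not depend on how libraries are scaled. That of Oas1a to Oas1g is uncertain all the same, since reads could be shared between this pair. The ratio of Oas1a to Oas1g was 5.59, 5.71 and 6.80 in the cisplatin libraries and 2.998, 2.93 and 2.88 in the PBS libraries. That of Oas2 to Oas3 was 1.92, 1.63 and 1.88 against 0.89, 0.95 and 0.89, so that Oas2 was above Oas3 with cisplatin and below it with PBS in every library. Oas1b to Oas1c stood at 5.15 ± 0.81 against 3.98 ± 0.33, and Oasl2 to Oasl1 at 0.89 ± 0.042 against 0.97 ± 0.031 (SD, n = 3 each). The groups were apart in all 4 pairs, each with p = 0.1 by the exact permutation test (two-sided, adjusted p = 0.1 over the 4 pairs), the smallest that 3 libraries against 3 allow. How often the ratios of other gene pairs lie apart was not computed, so this cannot be called particular to the family. The log2 ratio differed by 1.03 for Oas1a to Oas1g, 0.99 for Oas2 to Oas3, 0.37 for Oas1b to Oas1c and -0.12 for Oasl2 to Oasl1.

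Markers of ID8 and mesothelial cells were lower with cisplatin, as the family was. Of 12 ID8 and mesothelial markers, 8 were tested and 6 fell, at a median of -1.89 on the log2 scale, with Krt19 (-3.50), Wt1 (-3.14) and Krt8 (-2.60) changing the most. Their summed level was 178 to 192 FPKM with cisplatin and 1001 to 1077 FPKM with PBS, and none was at 0 in every library, although Krt7, Lrrn4, Muc16 and Epcam stayed too low to be tested. Divided by this sum, the OAS family came to 0.70, 0.67 and 0.66 in the cisplatin libraries and 0.53, 0.57 and 0.53 in the PBS libraries. The direction of this ratio rested on Krt19, which made up 55.4% to 56.7% of the marker sum with PBS and 26.3% to 28.9% with cisplatin. Without Krt19, a choice made after seeing the data, the ratio was 0.95, 0.95 and 0.91 with cisplatin and 1.23, 1.29 and 1.202 with PBS. With the 8 tested markers weighted equally, by their geometric mean and also chosen after seeing the data, it was 10.6 ± 0.11 and 10.8 ± 0.16 (SD, n = 3 each). Relative to these markers the change of the family was thus smaller than its 4.54-fold difference in FPKM, and its sign depended on the marker weights. In all 3 versions Oas1a and Oas2 were higher and Oasl1 and Oasl2 lower in every cisplatin library than in any PBS library. The whole marker sum itself differed 5.65-fold between the group means. The share of all tested genes that lie apart after the same division was not computed, so this cannot be called particular to these members. For the other 4 members the outcome varied with the version. Oasl2 stood at 9.17% ± 0.36 of the whole marker sum with cisplatin and 11.7% ± 0.87 with PBS, and Oas1a at 18.4% ± 0.74 and 9.54% ± 0.18 (SD, n = 3 each). The part of ID8 cell RNA in the change of the OAS genes was not tested.

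The 10 macrophage markers went the other way. They were all tested and 3 of them, Lyz2 (log2 fold change 1.57), Itgam (1.42) and Mertk (1.08), rose. The median over the list was 0.90, and its summed level was 4326 to 4489 FPKM with cisplatin against 1716 to 1727 FPKM with PBS. Scaled by the Y-linked genes these 3 were no longer called (0.58, 0.44 and 0.67), with a median of -0.09 over the list, and Mertk was also not called without PBS replicate 3. The count was 4 with quantile normalisation, and 5 with scaling by the total of recovered reads and with limma voom. Scaled by the macrophage markers, all 8 OAS genes were called lower with a median of -3.03, and scaled by the Y-linked genes with a median of -2.96, where the median over all genes tested was -0.91 and -0.83 respectively. Of the other lists, lymphocyte markers had 3 of 4 tested genes higher, neutrophil markers 2 of 5, Y-linked genes 1 of 4 and erythroid genes 0 of 4, and none had a gene called lower. Scaled by the Y-linked genes, Mpo (1.66), a neutrophil marker, was the only lymphocyte, neutrophil or erythroid gene still called. The Y-linked list itself centres near 0 under this scaling by construction.

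**Figure D3:**
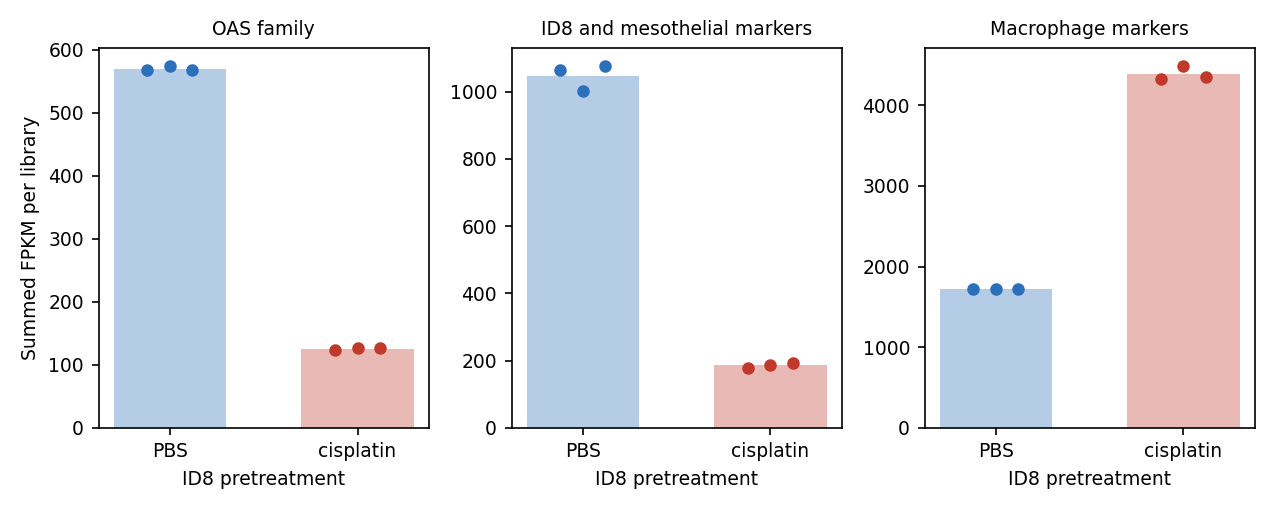
Summed FPKM per library of the OAS family, of 12 ID8 and mesothelial markers and of 10 macrophage markers, with a bar for the group mean and a point for each library (n = 3 each). The family and the ID8 and mesothelial markers are both lower with cisplatin (124 to 127 and 178 to 192 FPKM), and the macrophage markers are higher (4326 to 4489 FPKM).

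Of the other genes of the 2-5A pathway, none of the 4 reached the fold change threshold, all 4 had an adjusted p under 0.05, and their median log2 fold change was 0.56. Abce1, which encodes a ribosome recycling factor, had 35.7 ± 1.21 FPKM with cisplatin and 20.8 ± 0.30 FPKM with PBS (SD, n = 3 each). Pde12, a phosphodiesterase that degrades 2-5A, had 5.39 ± 0.36 and 3.54 ± 0.29 FPKM (SD, n = 3 each). Both were higher in every cisplatin library by their FPKM values, with log2 fold changes of 0.75 for Abce1 and 0.49 for Pde12 (limma adjusted p = 4.25e-06 and 0.000897). Their direction turned under scaling by the Y-linked genes (-0.21 and -0.32) and by the macrophage markers (-0.29 and -0.39). Akap7, whose product also has 2-5A phosphodiesterase activity, went the other way, with 1.96 ± 0.17 FPKM with cisplatin and 3.13 ± 0.13 FPKM with PBS (SD, n = 3 each) and a log2 fold change of -0.48 (limma adjusted p = 0.00103). It was called lower under scaling by the Y-linked genes (-1.18) and by the macrophage markers (-1.24).

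**Figure D4:**
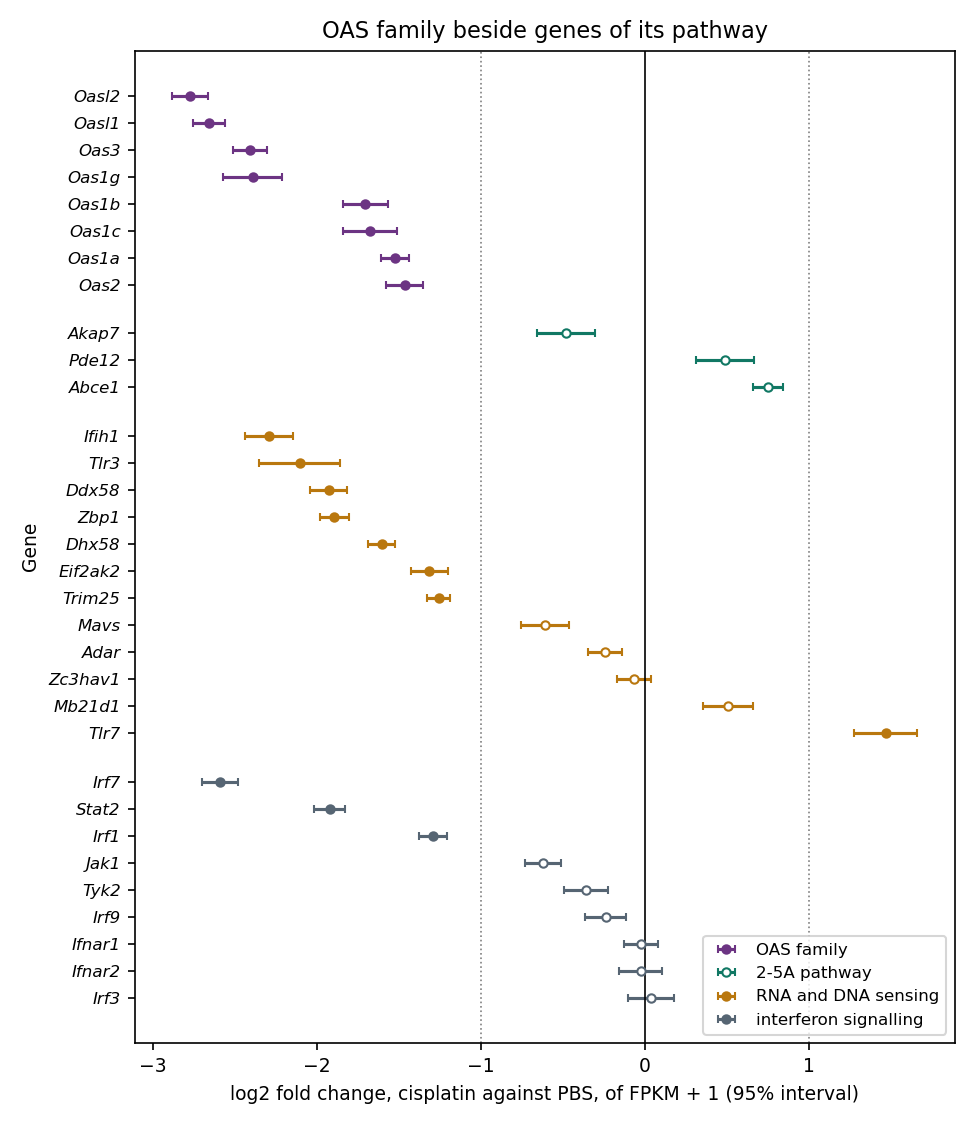
Log2 fold change (cisplatin against PBS, FPKM + 1) with 95% intervals for the OAS family, the 2-5A pathway, RNA and DNA sensing genes and interferon signalling genes, with 2 genes of these lists not shown. Filled points were called, open points were not, and dotted lines mark a log2 fold change of 1 in size. The OAS genes run from -2.77 to -1.46, and the 2-5A genes from -0.48 to 0.75.

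Other sensors of RNA and DNA fell in part. Of 12 tested, 7 fell and 1 rose, and the median log2 fold change was -1.28. The largest changes were those of Ifih1, which encodes the RNA helicase MDA5 (-2.29), of Tlr3, a receptor for double-stranded RNA (-2.10), and of Ddx58, which encodes RIG-I (-1.93). Tlr7, a receptor for single-stranded RNA, stood at 22.8 ± 1.62 FPKM with cisplatin and 7.60 ± 0.80 FPKM with PBS (SD, n = 3 each), a log2 fold change of 1.47 (limma adjusted p = 5.92e-06). It was named after its values were seen, and it was not called under scaling by the Y-linked genes (0.55) or by the macrophage markers (0.47).

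Among 10 interferon signalling genes, 4 fell and none rose, with a median of -0.49. The median was -1.45 with scaling by the Y-linked genes and -1.53 with scaling by the macrophage markers, where that of all tested genes was -0.83 and -0.91. Irf7, the interferon regulatory factor whose translation Oasl1 restrains, had 15.8, 16.1 and 16.4 FPKM with cisplatin and 103, 96.0 and 107 FPKM with PBS. Its log2 fold change of -2.59 (SE 0.046, limma adjusted p = 7.06e-08) lay between those of Oas3 and Oasl1. Stat2, part of the complex that binds the interferon-stimulated response element, fell as well (-1.92, limma adjusted p = 1.01e-07), as did Irf1 (-1.29), named after its values were seen. The receptor genes Ifnar1 and Ifnar2, named after their values were seen, had log2 fold changes of -0.02 each, with 95% intervals of -0.13 to 0.08 and -0.15 to 0.11. They were at most 0.06 under the alternatives that turned their sign. Scaling by the Y-linked genes gave -0.99 for each, and scaling by the macrophage markers gave -1.08 and -1.07, by which both were called lower. The 10 interferon ligand genes were all too low to be tested and summed to 0.39 to 0.60 FPKM with cisplatin and 0.67 to 1.097 FPKM with PBS.

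Neighbours of the family were compared next. Of 45 genes within 200000 bases of a member, 19 were tested, at a median of -0.19 against -2.05 in the family. Of the 19, 3 fell, where 11.3% of all tested genes did, and none rose, where 4.67% did. With 3 of 19 lower, the neighbours were near the share over all tested genes. The 3 were Rasal1 (-1.38), 2510016D11Rik (-1.26) and Tpcn1 (-1.06), all on the Oas2 side of the Oas cluster. On FPKM itself the ratios of PBS to cisplatin means were 3.09, 2.98 and 2.24, so that Rasal1 and 2510016D11Rik, both low genes, were above Oas2 (2.83) and Oas1a (2.93) on that scale, though not on log2(FPKM + 1). The 4 other OAS genes of the cluster, Oas1d, Oas1e, Oas1f and Oas1h, were too low to be tested. Oas1h was the highest of them, at 0.13 FPKM with cisplatin and 0.40 FPKM with PBS on average.

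**Figure D5:**
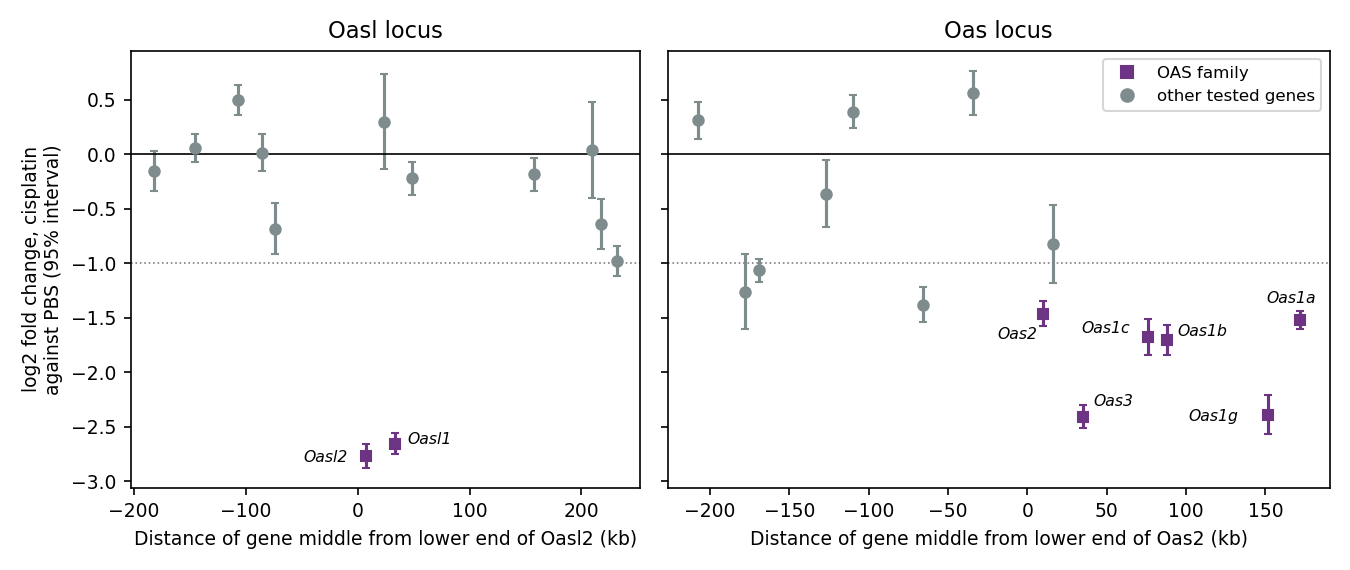
Log2 fold change with 95% interval of each tested gene within 200000 bases of an OAS gene, against the distance (kb) of its middle from the lower end of Oasl2 (left) or Oas2 (right). The OAS genes (purple squares) lie at -1.46 and below, and the 19 other tested genes (grey circles) lie between -1.38 and 0.56.

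The genes whose pattern over the 6 libraries was nearest to the family mean, by root mean square difference of centred log2(FPKM + 1), were Herc6 (0.025), Slc44a1 (0.034), Slc7a2 (0.034), Tsc22d1 (0.035) and Tpi1 (0.035). Their levels with cisplatin and with PBS ran from 3.30 and 16.9 FPKM in Herc6, an interferon-induced ubiquitin ligase, to 118 and 507 FPKM in Tpi1, a glycolytic enzyme. The members themselves lay further from their own mean, from 0.17 in Oas3 to 0.35 in Oasl2.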

How the data were processed

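RNA of 6 libraries was poly-T selected and sequenced by the authors. The deposited table holds FPKM values per gene and library. The submitters' processing notes name fastp, HISAT2 2.0.5 and featureCounts 1.5.0-p3 with mm10, whereas the study's methods name LifeScope for alignment and counting, followed by DESeq2. Strand use in counting is not given in the sources used here, so levels of overlapping genes are less certain. All 8 OAS genes had the same coordinates in GENCODE M21 (GRCm38), and columns of samples left unused numbered 0.

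Multiplied by gene length, 100% of values under 200 reads were whole multiples of 1 step (tolerance 0.01 reads), which gave the reads per library. The denominator of the FPKM was 103.7% to 104.1% of these reads with cisplatin and 97.4% to 98.7% with PBS. The members rested on 60 to 13385 reads per library, where only counting error can be read from such numbers.

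Groups came from the treatment labels. Genes with at least 1 FPKM in at least 3 libraries were fitted on log2(FPKM + 1) with limma 3.58.1 (R 4.3.3, lmFit, eBayes with a trend), with Benjamini-Hochberg adjustment over 13441 genes, and the procedure was tested on simulated data. Ratios between members were compared by exact permutation (scipy 1.17.1), and coding sequences were aligned with Biopython 1.88. The members and lists were chosen with earlier results of these data known, and the lists were written down by hand. The genes named are the 8 members, every 2-5A pathway gene, the 3 of each other list and of the locus neighbours with the largest change, and the 5 nearest in pattern. For the lymphocyte, neutrophil, erythroid and Y-linked lists counts are given, and Mpo alone is named. Single-gene results of 2 genes of the rule are not reported here, and both are counted in their lists. Alternatives covered the pseudocount, filters, scalings, voom, protein-coding genes alone, left-out libraries, a replicate block, the adjusted p alone and limma treat.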

Additional observations from a re-analysis of the deposited data

Results flagged for a closer look

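Ifng, which encodes interferon gamma, was too low to be tested and had 0.23, 0.28 and 0.23 FPKM in the cisplatin libraries, a mean of 0.25 FPKM, against 0, 0.099 and 0.10 FPKM in the PBS libraries. These values rest on 5, 6 and 5 reads against 0, 2 and 2 reads. It drew attention because every cisplatin library was above every PBS library in a gene that entered no test. In the same ligand list Ifnb1 (0, 3 and 2 against 9, 4 and 5 reads) and Ifna5 (0 against 1, 2 and 1 reads) were lower in every cisplatin library. None of these differences was tested.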

How the results depend on the processing

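Under every alternative that gave a value, each of the 8 OAS genes kept its direction and its call. The family's level relative to ID8 and mesothelial markers was not among these alternatives. Its log2 ratio, cisplatin minus PBS, was 0.32 over the marker sum, -0.41 without Krt19 and -0.032 over the geometric mean, the last 2 chosen after seeing the data. Oas1b is no protein-coding gene in the table and had no value with protein-coding genes only, which left 7 members, all called. With each library left out in turn, log2 fold changes ranged from -1.55 to -1.51 for Oas1a, -1.75 to -1.66 for Oas1b, -1.71 to -1.63 for Oas1c, -2.44 to -2.31 for Oas1g, -1.495 to -1.43 for Oas2, -2.44 to -2.37 for Oas3, -2.68 to -2.62 for Oasl1 and -2.80 to -2.74 for Oasl2.

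Counts of called genes in other lists moved. Scaling by the Y-linked genes gave 1 in the 2-5A pathway (0 without it), 7 in interferon signalling (4) and 10 locus neighbours (3). Scaling by the macrophage markers gave 1, 9 and 11, and the adjusted p alone gave 4, 7 and 14. Of all 13441 genes tested, 5181 were called lower with the Y-linked scaling and 5812 with the macrophage scaling, against 1514 without them. The share over all genes was not computed for the adjusted p alone or for limma treat. Locus neighbours called were 5 with a pseudocount of 0.1, 5 with TPM rescaling, 1 with limma treat, and 3 to 4 with a library left out. The 2 marker scalings shift all genes by construction. With the Y-linked and the macrophage scaling, list medians were -2.25 and -2.34 in RNA and DNA sensing and -0.27 and -0.34 in the 2-5A pathway. In the locus neighbours they were -1.06 and -1.13. The cause of the other differences was not tested. Under quantile normalisation the median over all genes tested was 0.10.

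Replicate numbers are shared by the groups, but same-numbered libraries did not deviate together (r = -0.10, -0.086 and -0.024). This cannot show whether same-numbered libraries were prepared together. With the replicate number as a block, 8 OAS genes were again called lower, and over all genes 1515 were lower and 625 higher.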
